A study of Homo sapiens with 6 samples.

Results

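The genes of the amino acid response were followed in U87-MG cells, an established human glioblastoma line, as 37 genes chosen by function: ATF4 and its partner transcription factors, stress effectors, enzymes of serine, one-carbon, asparagine and alanine metabolism, amino acid transporters, and cytosolic tRNA synthetases. The members were taken by symbol from the deposited table of 61731 genes and loci. The rule uses no measured value, but the members were chosen with earlier results of these data known. All 37 were found, and all 37 passed the limit of a mean of 1 TPM that left 13722 genes for testing. TPM is the share of a library that a transcript takes after its length is accounted for, so levels of different genes can be compared.

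The 6 libraries of total RNA fall into 2 groups of 3. One group is the negative control, and the other carries the label of a knockdown of CHRM3, the M3 muscarinic acetylcholine receptor. The study asked what CHRM3 does in glioblastoma cells, and its knockdown was made by lentiviral infection of the line, with no statement of which knockdown sequence these libraries carried or of what the control virus held. The sources do not tie the libraries to separate cultures, so each p-value measures only the spread between these libraries, which may be technical.

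ATF4 is a transcription factor whose messenger RNA is translated preferentially when the initiation factor eIF2 is phosphorylated, which happens when uncharged tRNA, misfolded protein or other stress activates an eIF2 kinase. With C/EBP family partners it binds composite C/EBP-ATF elements and drives genes for the synthesis, import and tRNA loading of amino acids. Because that control acts largely on translation, the level of ATF4 messenger RNA does not report the amount of ATF4 protein, which was not measured here. In glioma cells, serine synthesis and glutamine uptake, both served by members of this group, feed nucleotide and glutathione production.

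CHRM3 itself was between 0.01 and 0.13 TPM in all 6 libraries, with overlapping groups, so no reduction was detectable and each direction below rests on the labels. CDKN2A and MTAP, which lie in the deletion known in U87-MG, were at most 0.01 TPM in every library. Of the glial and glioma markers, VIM (6527.71 to 7451.18 TPM) and CD44 (458.95 to 619.74 TPM) were abundant, GFAP was 0.87 to 1.46 TPM and NES 1.98 to 4.01 TPM, OLIG2 was at most 0.56, S100B at most 0.42 and SOX2 at most 0.09 TPM, and AQP4 was listed at 0. PTPRC and PECAM1, which define leukocytes and endothelium, were at most 0.12 and 0.05 TPM, EPCAM was 0.63 to 1.44 TPM, and CD68, a lysosomal protein used as a macrophage marker, was 170.08 to 253.3 TPM and fell by 0.54 on the log2 scale. CD44 was also lower and VIM and NES higher in the knockdown-labelled libraries, and the part of these differences in the results below was not tested. Pearson's correlation of log2 values was 0.976 to 0.979 within groups and 0.964 to 0.969 between them. In these pools of cells, fewer cells expressing a gene and less RNA per cell cannot be told apart.

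Of the 7 amino acid transporters, 5 fell in the knockdown-labelled libraries, led by the glutamine transporter SLC1A5 and the transporter heavy chain SLC3A2. GDF15, a secreted stress cytokine, fell to less of its control level than any other member, and VLDLR, a lipoprotein receptor, rose most. ATF4 messenger RNA was slightly higher, and the 9 tRNA synthetases together were almost level. Means are given ± SD over the 3 libraries of a group, controls first. Differences were tested with limma on log2(TPM + 1), and a gene was called at an adjusted p under 0.05 over all tested genes. Of the 37 members, 12 were lower (32.4%) and 5 were higher (13.5%), while 20 were not called. Over all tested genes, 24.0% were called lower and 12.1% higher. The share of members called higher is thus near that of all genes, and the share called lower is 32.4% against 24.0%. When a log2 fold change of 1 or more in size was also required, 1 member was lower (GDF15) and 0 were higher, where 1.20% and 0.670% of all tested genes passed. Each of the 3 knockdown-labelled libraries lay below every control for 18 members (48.6%) and above every control for 7, against 32.8% and 17.4% of all tested genes.

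The median log2 fold change of the members was -0.13, and that of all tested genes was -0.06. Below 0 were 25 members (67.6%), against 60.2% of all tested genes. Changes of at least 0.5 in size on the log2 scale were about as frequent as elsewhere, with 8.11% of members at or below -0.5 against 6.68% of all genes, and 2.7% at or above 0.5 against 4.53%. When the libraries were rescaled so that the median of all genes stood at 0.00, the called share of all genes became 16.4% lower and 16.8% higher by median-of-ratios scaling, and 16.2% and 16.3% by quantile normalization. Under these scalings 10 and 11 members were lower, 7 were higher under each, and the median log2 fold change of the members was -0.07 and -0.05.

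**Figure D1:**
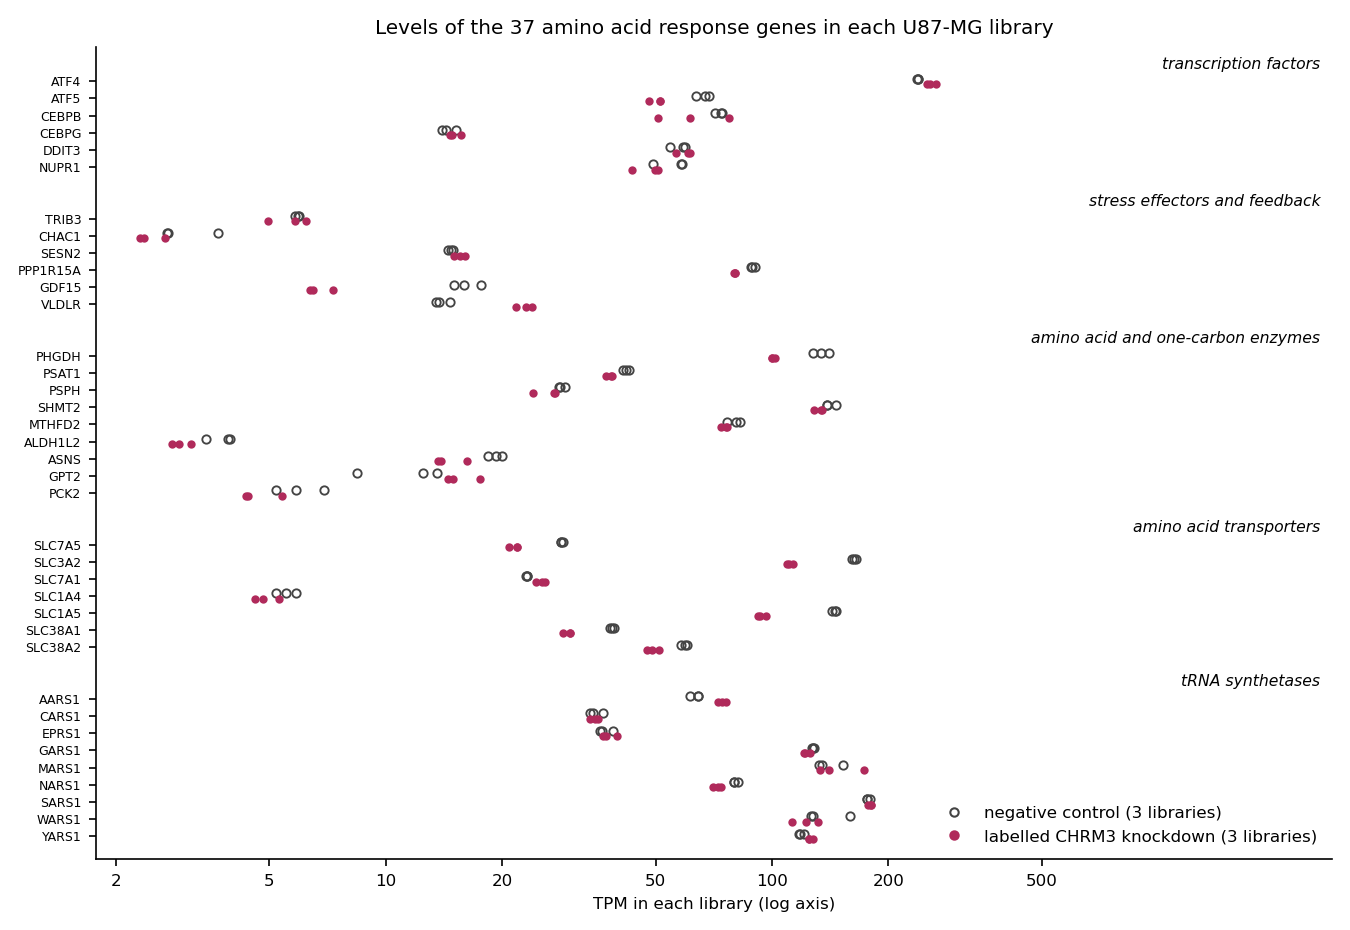
Level of each of the 37 members in each library, in TPM on a log axis, grouped by role, with open circles for the 3 negative control libraries and filled circles for the 3 knockdown-labelled libraries. The filled circles of SLC3A2, SLC1A5 and GDF15 lie clearly to the left of the open ones, those of VLDLR to the right, and those of ATF4 between 252.09 and 266.28 TPM just above controls of 237.23 to 238.55 TPM.

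**Figure D2:**
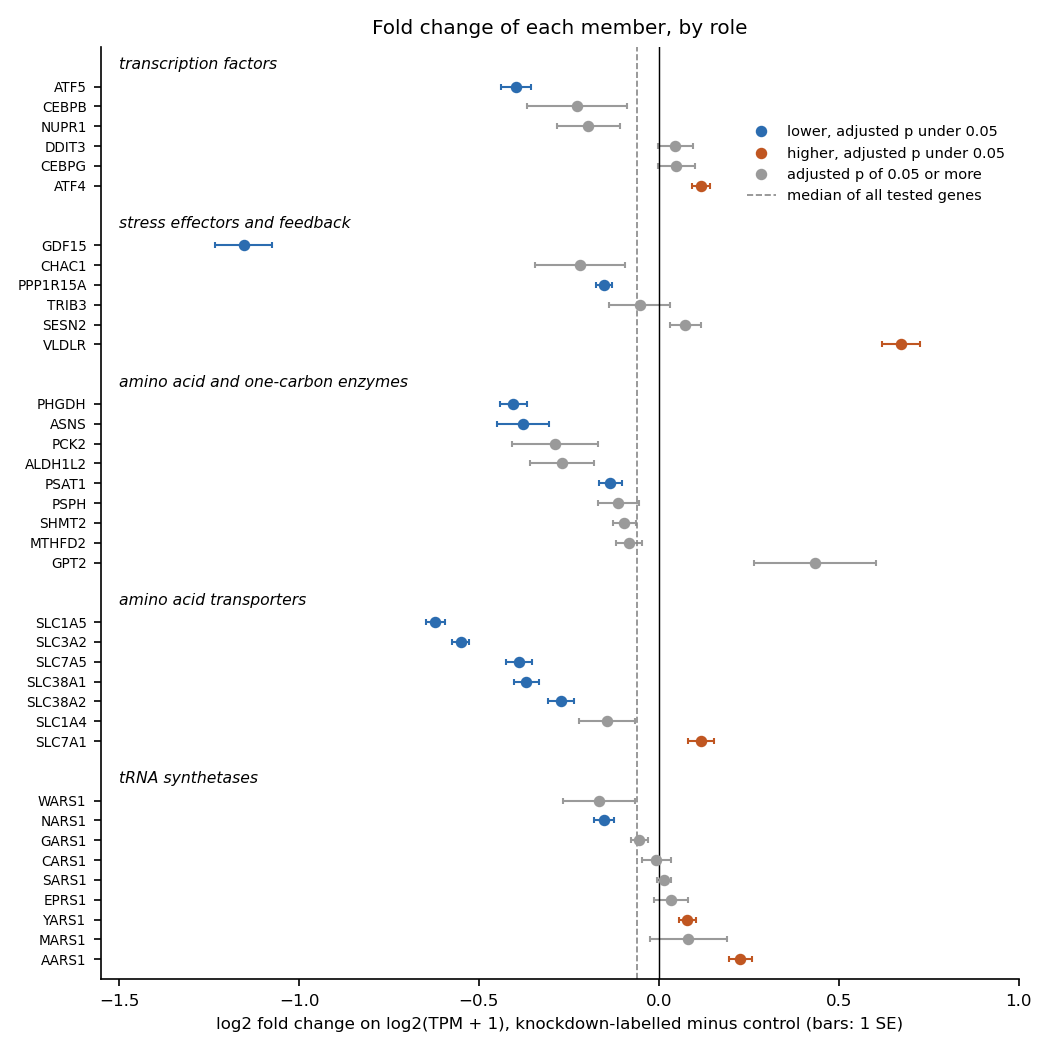
Log2 fold change of each member on the log2(TPM + 1) scale, knockdown-labelled minus control, with bars of 1 standard error from limma and the median of all tested genes (-0.06) as a dashed line. GDF15 at -1.15 and VLDLR at 0.67 are the outermost points, and 5 of the 7 transporters lie between -0.62 and -0.27 with short bars.

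The promoters of the members were searched for a short sequence. No sequence was used to choose the members, but they include listed targets of ATF4, which binds C/EBP-ATF elements with its partners. Their share of matches is thus not independent of that choice. The core of the C/EBP-ATF element, written TGATGNAA, was sought on both strands of RefSeq promoter windows (build GRCh38.p14), each running from 250 bases before an annotated transcription start to 50 bases after it. A window was given for 31 of the 37 members, and NUPR1, PSPH, SHMT2, ALDH1L2, GPT2 and YARS1 had no entry. The letters occurred in 13 of the 31 members (41.9%) and in 273 of the 9878 tested genes with a window (2.76%). Among all 27305 genes with a window the share was 4.46%. Counted by window, 13 of 50 member windows (26.0%) and 3.62% of all 35116 windows held them. The stricter form TGATGCAA, which is contained in the first, occurred in 8 members (25.8%), in 0.709% of the tested genes and in 1.08% of all genes with a window. By window these were 8 of the 50 member windows and 0.866% of all windows. By role the 13 were 5 tRNA synthetases (AARS1, CARS1, GARS1, MARS1 and NARS1), 5 transporters (SLC3A2, SLC7A1, SLC1A4, SLC1A5 and SLC38A1), CEBPG, CHAC1 and ASNS. A match of letters is a description and not a binding site.

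The match and its flanks are shown for the 4 members with the largest called changes among the 13, read 5′ to 3′ on the strand of the match, with the 8 matching letters in capitals. The match of SLC1A5 is at chr19:46784904-46784911 on the minus strand, that of SLC3A2 at chr11:62881736-62881743 on the minus strand, that of ASNS at chr7:97872469-97872476 on the minus strand, and that of SLC38A1 at chr12:46266513-46266520 on the minus strand.
SLC1A5: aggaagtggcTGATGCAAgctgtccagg
SLC3A2: ggagcTGATGTAAggagtcctgc
ASNS: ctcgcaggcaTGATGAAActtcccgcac
SLC38A1: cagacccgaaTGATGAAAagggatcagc
Only SLC1A5 among these 4 has the stricter letters. SLC3A2 lies on the plus strand, so its match is on the strand opposite to the gene and lies at base 38 of the transcript from that start, whereas the other genes lie on the minus strand and carry the match on their own strand. Each of the 4 has more than 1 annotated start, and 1 window of 3 held the match for SLC1A5 and SLC3A2 and 1 of 2 for ASNS and SLC38A1. For all 4, the start that gives the match lies downstream of the gene's outermost start in GENCODE 29. To show where the letters sit, the 250 bases before the start are given for ASNS, at chr7:97872409-97872658, and for SLC1A5, at chr19:46784815-46785064, both on the minus strand.
ASNS: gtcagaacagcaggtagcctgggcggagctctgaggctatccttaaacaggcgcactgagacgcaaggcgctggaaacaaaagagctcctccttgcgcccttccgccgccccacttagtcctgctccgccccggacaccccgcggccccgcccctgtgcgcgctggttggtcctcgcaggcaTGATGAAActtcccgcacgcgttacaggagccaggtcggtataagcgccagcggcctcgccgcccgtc
SLC1A5: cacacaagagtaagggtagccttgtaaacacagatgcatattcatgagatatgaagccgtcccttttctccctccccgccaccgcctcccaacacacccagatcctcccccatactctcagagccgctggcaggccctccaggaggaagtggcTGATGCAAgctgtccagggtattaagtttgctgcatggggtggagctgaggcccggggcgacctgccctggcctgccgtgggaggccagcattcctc

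The direction of change was set beside the presence of the letters. Of the 13 with a match, 5 were lower, 2 higher and 6 not called, with a median log2 fold change of -0.14. Of the 18 with a window and no match, 7 were lower, 2 higher and 9 not called, also with a median of -0.14. Sequence outside the windows was not searched, so members without a match may carry the letters elsewhere. The members with the outermost changes, GDF15 and VLDLR, were among the 18 without a match.

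Among the 6 transcription factors, ATF4 rose, ATF5 fell and the other 4 were not called. ATF4 (ENSG00000128272, chromosome 22 from 39519695 to 39522685, GRCh38) was at 237.23, 238.19 and 238.55 TPM in the control libraries and at 256.19, 266.28 and 252.09 TPM in the knockdown-labelled ones. Every knockdown-labelled library lay above every control, and the controls spanned little more than 1 TPM. The rise was 8.49% in TPM, or a log2 fold change of 0.12 (standard error 0.0245, adjusted p = 0.0116). That call was lost when limma's variance was fitted without a trend (adjusted p = 0.0556). ATF5, a related factor that is also controlled at translation, fell from 66.5 ± 2.48 to 50.2 ± 1.89 TPM (SD, n = 3 per group), a log2 fold change of -0.40 (adjusted p = 0.000731). The ratio of ATF4 to ATF5 levels was 3.46, 3.54 and 3.74 in the controls and 5.0, 5.54 and 4.9 in the knockdown-labelled libraries. Of the exon bases of ATF5, 21.2% lie opposite those of NUP62, which fell by 0.27 on the log2 scale (adjusted p = 0.0012), and whether the counting used strand is not stated.

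DDIT3, also called CHOP, the factor linked to cell death under lasting stress, was 57.7 ± 2.8 TPM in the controls against 59.5 ± 2.7 TPM in the knockdown-labelled libraries (adjusted p = 0.516). It shares 27.2% of its exon bases with MARS1 on the opposite strand and 105 bases with the annotated gene ENSG00000285133 on its own strand, whose values ran from 0.0 to 471.89 TPM with no order by group. CEBPB, a C/EBP partner of ATF4, was 74.33, 73.72 and 71.22 TPM in the controls against 50.8, 61.25 and 77.4 TPM in the knockdown-labelled libraries. The third of these lies above all controls and the others below, and the log2 fold change of -0.23 was not called (adjusted p = 0.25). It was -0.384 (adjusted p = 0.0248) without knockdown replicate 3 and -0.085 (adjusted p = 0.556) without knockdown replicate 1. CEBPG, the other C/EBP partner here, was 14.5 ± 0.638 and 15.0 ± 0.518 TPM (adjusted p = 0.498). NUPR1, a small chromatin-associated stress protein, was 55.2 ± 5.26 and 48.0 ± 3.99 TPM, for a log2 fold change of -0.20 that was not called (adjusted p = 0.129). Control replicate 1 of NUPR1 was at 58.12 TPM, replicate 2 at 49.14 and replicate 3 at 58.38, and the log2 fold change was -0.277 (adjusted p = 0.0478) without control replicate 2 and -0.127 (adjusted p = 0.301) without knockdown replicate 1.

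The 6 stress effectors and feedback genes went in both directions. GDF15 (ENSG00000130513, chromosome 19 from 18374731 to 18389176) was at 15.94, 17.63 and 15.03 TPM in the controls and at 6.49, 7.32 and 6.36 TPM in the knockdown-labelled libraries. Its groups are far apart, with the lowest control at 15.03 TPM and the highest knockdown-labelled library at 7.32 TPM. The level fell by 58.5%, or a log2 fold change of -1.15 (standard error 0.0787, adjusted p = 0.000136). Over the 15 alternative fits, the log2 fold change of GDF15 lay between -1.256 and -1.086.

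VLDLR (ENSG00000147852, chromosome 9 from 2621834 to 2660053), the very low density lipoprotein receptor, which ATF4 raises under stress, was at 13.54, 14.69 and 13.74 TPM in the controls and at 23.86, 23.07 and 21.79 TPM in the knockdown-labelled libraries. All knockdown-labelled libraries were above all controls. The rise was 63.7%, or a log2 fold change of 0.67 (standard error 0.0525, adjusted p = 0.000221). PPP1R15A, also called GADD34, the phosphatase subunit that reverses eIF2 phosphorylation, fell from 89.2 ± 0.981 to 80.2 ± 0.287 TPM (SD, n = 3 per group), a small difference, or a log2 fold change of -0.15 (adjusted p = 0.0029).

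The remaining 3 effectors were not called. TRIB3, a pseudokinase that restrains ATF4, was 5.9 ± 0.0781 TPM in the controls against 5.67 ± 0.642 TPM in the knockdown-labelled libraries (adjusted p = 0.666). CHAC1, which degrades glutathione and is among the genes most responsive to ATF4, was the lowest member at 3.04 ± 0.551 and 2.46 ± 0.204 TPM. Its groups did not overlap, yet its log2 fold change of -0.22 was not called (adjusted p = 0.217), and control replicate 3 at 3.68 TPM stood above the other controls at 2.72 and 2.73 TPM. Without control replicate 3 the log2 fold change of CHAC1 was -0.11 (adjusted p = 0.453). SESN2, a leucine sensor upstream of mTORC1, was 14.7 ± 0.235 and 15.6 ± 0.535 TPM (adjusted p = 0.241). After median-of-ratios scaling its log2 fold change moved from 0.07 to 0.139 (adjusted p = 0.0471).

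Of the 9 metabolic enzymes, 3 fell (33.3%, against 24.0% of all tested genes) and 6 were not called, and 8 had a log2 fold change below 0, as did 60.2% of all tested genes. Their summed level was 466.1 ± 3.2 TPM in the controls against 410.8 ± 6.79 TPM in the knockdown-labelled ones (SD, n = 3 per group). PHGDH, the first enzyme of serine synthesis, accounted for much of this. It was 127.39, 133.8 and 140.43 TPM in the controls against 100.21, 101.95 and 100.33 TPM in the knockdown-labelled libraries, which sit close together below every control. Its log2 fold change was -0.40 (standard error 0.0378, adjusted p = 0.000451).

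PSAT1, the aminotransferase of the next step, fell less, from 41.9 ± 0.829 to 38.1 ± 0.673 TPM, for a log2 fold change of -0.13 (adjusted p = 0.0176). The call of PSAT1 was lost without control replicate 1 (adjusted p = 0.0504), without control replicate 2 (adjusted p = 0.0535) and under both scalings, where its log2 fold change was -0.066 and -0.046. PSPH, the phosphatase of the last step, was 28.5 ± 0.532 and 26.3 ± 1.89 TPM (adjusted p = 0.171). The ratio of PHGDH to PSAT1 levels was 3.2 ± 0.193 in the controls and 2.65 ± 0.0729 in the knockdown-labelled libraries, while that of PSAT1 to PSPH was 1.47 ± 0.0157 and 1.45 ± 0.127 (SD, n = 3 per group). The groups did not overlap in the first ratio and overlapped in the second.

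The mitochondrial one-carbon enzymes were not called. SHMT2, which splits serine into glycine and a one-carbon unit, was 141.5 ± 4.43 and 132.3 ± 3.57 TPM (adjusted p = 0.0628), and MTHFD2, the next enzyme, was 79.9 ± 3.26 and 75.4 ± 1.34 TPM (adjusted p = 0.127). For both, every knockdown-labelled library lay below every control, and the ratio of SHMT2 to MTHFD2 was 1.77 ± 0.128 and 1.76 ± 0.0163. The groups of MTHFD2 nearly touched, at 76.34 TPM in control replicate 2 and 76.29 TPM in knockdown replicate 2. ALDH1L2, which makes NADPH from mitochondrial formyl groups, was low at 3.76 ± 0.289 and 2.95 ± 0.177 TPM, and its log2 fold change of -0.27 fell just short of a call (adjusted p = 0.0544). Without control replicate 2, MTHFD2 reached -0.114 (adjusted p = 0.0443) and ALDH1L2 -0.321 (adjusted p = 0.0489), while ALDH1L2 was also called without a variance trend (adjusted p = 0.024).

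ASNS, asparagine synthetase, is among the best studied targets of ATF4, and its promoter letters are shown above. It was 20.05, 19.34 and 18.39 TPM in the controls against 16.25, 13.94 and 13.69 TPM in the knockdown-labelled libraries, with no overlap. It fell by 24.1%, or a log2 fold change of -0.38 (standard error 0.0732, adjusted p = 0.00865). Of its exon bases, 44.6% are shared with the annotated same-strand gene ENSG00000284707, which was 14.8 ± 1.81 and 15.7 ± 0.977 TPM (adjusted p = 0.508), so how reads were divided between these genes bears on the value of ASNS and was not tested.

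GPT2, the mitochondrial alanine aminotransferase, was the enzyme with a positive log2 fold change. It was 13.55, 12.53 and 8.43 TPM in the controls against 14.5, 14.92 and 17.52 TPM in the knockdown-labelled libraries. The groups did not overlap, but control replicate 3 stood apart and the difference of 0.43 on the log2 scale was not called (adjusted p = 0.0924). Without control replicate 3 it was 0.242 (adjusted p = 0.124). PCK2, the mitochondrial phosphoenolpyruvate carboxykinase, was 5.99 ± 0.867 and 4.71 ± 0.58 TPM, with overlapping groups (adjusted p = 0.105).

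The 7 amino acid transporters summed to 464.3, 461.2 and 465.4 TPM in the controls and to 336.6, 336.4 and 333.6 TPM in the knockdown-labelled libraries, a difference of -27.6%. The most abundant of the 7, SLC3A2 and SLC1A5, accounted for most of this difference. Of the 7, 5 fell (71.4%), 1 rose (14.3%) and 1 was not called, where 24.0% of all tested genes were lower and 12.1% higher. The median log2 fold change was -0.37, against -0.06 over all tested genes. SLC1A5 (ENSG00000105281, chromosome 19 from 46774883 to 46788594), also called ASCT2, exchanges glutamine and other neutral amino acids across the plasma membrane. It was at 146.03, 142.71 and 146.11 TPM in the controls and at 93.04, 96.4 and 92.14 TPM in the knockdown-labelled libraries. The lowest control was at 142.71 TPM and the highest knockdown-labelled library at 96.4 TPM, and the log2 fold change was -0.62 (standard error 0.0263, adjusted p = 2.06e-05). SLC1A4, or ASCT1, its close relative for alanine, serine and cysteine, was far lower at 5.53 ± 0.33 and 4.91 ± 0.363 TPM and was not called (adjusted p = 0.201). SLC1A5 was 26.3 ± 1.26 times the level of SLC1A4 in the controls and 19.2 ± 1.04 times in the knockdown-labelled ones (SD, n = 3 per group).

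SLC3A2 (ENSG00000168003, chromosome 11 from 62856102 to 62888875) encodes CD98, the heavy chain that brings several light chains, SLC7A5 among them, to the cell surface. It was at 161.33, 165.27 and 163.57 TPM in the controls and at 110.68, 109.37 and 113.7 TPM in the knockdown-labelled libraries. No library of one group came near the other, and the log2 fold change was -0.55 (standard error 0.0241, adjusted p = 2.34e-05). SLC7A5, or LAT1, the light chain that carries leucine and other large neutral amino acids, fell from 28.6 ± 0.232 to 21.6 ± 0.592 TPM (SD, n = 3 per group), a log2 fold change of -0.39 (adjusted p = 0.000429). Both chains fell, and the heavy chain messenger RNA was 5.71 ± 0.113 times the level of the light chain in the controls and 5.16 ± 0.245 times in the knockdown-labelled libraries.

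The sodium-coupled glutamine and alanine carriers fell as well. SLC38A1 went from 38.5 ± 0.455 to 29.6 ± 0.757 TPM, for a log2 fold change of -0.37 (adjusted p = 0.000397). SLC38A2, which rises in many cells when amino acids are removed, went from 59.4 ± 1.06 to 49.1 ± 1.77 TPM, for a log2 fold change of -0.27 (adjusted p = 0.00171). Both genes lie on chromosome 12, SLC38A1 from 46183063 to 46270017 and SLC38A2 from 46358189 to 46372867. SLC7A1, or CAT1, the carrier of arginine and lysine, was the transporter that rose, from 23.2 ± 0.05 to 25.2 ± 0.744 TPM, for a log2 fold change of 0.12 (adjusted p = 0.0479). This call was lost in 10 of the 15 alternative fits. Among them were 5 of the 6 that left out a library, namely those without control replicate 1, 2 or 3 or without knockdown replicate 1 or 2, with log2 fold changes of 0.098 to 0.118. The 5 transporters that fell were called in all 15.

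**Figure D3:**
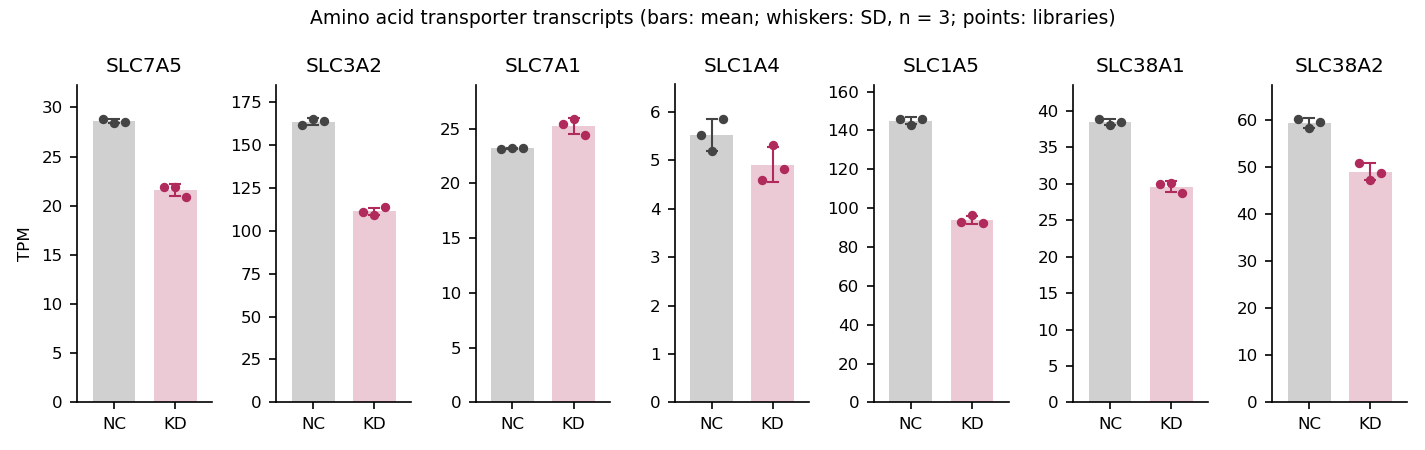
Level of each amino acid transporter in TPM, with bars for the mean, whiskers for the SD (n = 3) and points for the libraries, for the negative control (NC) and the libraries labelled CHRM3 knockdown (KD), each panel on its own axis from 0. SLC7A5, SLC3A2, SLC1A5, SLC38A1 and SLC38A2 show knockdown-labelled points below all control points, SLC7A1 shows them above, and the points of SLC1A4 overlap.

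The 9 tRNA synthetases, which load amino acids onto their tRNAs, had the summed level that moved least among the 5 roles. They summed to 917.3 ± 27.7 TPM in the controls against 918.1 ± 25.2 TPM in the knockdown-labelled ones (SD, n = 3 per group), and their median log2 fold change was 0.02. AARS1, for alanine, rose from 63.3 ± 1.79 to 74.2 ± 1.73 TPM, for a log2 fold change of 0.23 (adjusted p = 0.00264). NARS1, for asparagine, fell from 80.4 ± 1.15 to 72.2 ± 1.67 TPM, for a log2 fold change of -0.15 (adjusted p = 0.00694), a call that was lost after median-of-ratios scaling (adjusted p = 0.057). YARS1, for tyrosine, rose from 119.0 ± 2.1 to 125.8 ± 1.89 TPM, for a log2 fold change of 0.08 (adjusted p = 0.0446). The call of YARS1 was lost in 9 of the 15 alternative fits, among them those without control replicate 2 or 3 and without knockdown replicate 1, 2 or 3, with log2 fold changes of 0.067 to 0.086.

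Each of the other 6 synthetases was not called. GARS1, for glycine, was 127.7 ± 0.862 and 123.0 ± 2.4 TPM, with groups that did not overlap (adjusted p = 0.119). SARS1, for serine, the most abundant of the 9, was 177.3 ± 1.95 and 179.2 ± 1.67 TPM (adjusted p = 0.591), and it was called higher after median-of-ratios scaling (log2 fold change 0.085, adjusted p = 0.018). CARS1, for cysteine, was 34.9 ± 1.4 and 34.7 ± 0.778 TPM (adjusted p = 0.914), and EPRS1, for glutamate and proline, was 36.4, 38.73 and 35.8 TPM against 37.26, 36.61 and 39.81 TPM (adjusted p = 0.613). Single libraries stood out in the remaining pair. WARS1, for tryptophan, was 128.04, 159.52 and 126.12 TPM in the controls against 113.0, 131.38 and 122.32 TPM in the knockdown-labelled libraries (adjusted p = 0.246), and its log2 fold change moved from -0.17 to -0.058 without control replicate 2. MARS1, for methionine, was 132.73, 152.45 and 134.55 TPM in the controls against 140.47, 132.84 and 173.27 TPM in the knockdown-labelled libraries (adjusted p = 0.586), with the highest value in knockdown replicate 3, without which its log2 fold change turned from 0.08 to -0.031.

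Other genes of the pathway, 108 in 7 lists, were read beside the members. Of these 93 were tested, with 27 lower and 20 higher (21.5%) and a median log2 fold change of -0.06, where 24.0% of all tested genes were lower and 12.1% higher. The counts of single lists below are small and read against these shares. Upstream of ATF4, the list of eIF2 kinases, eIF2 and eIF2B subunits and their regulators had 6 of 18 lower and 3 higher. Under either rescaling 1 was lower. With a library left out, 1 was lower without control replicate 2 or knockdown replicate 1 or 2, 2 without control replicate 3, 3 without control replicate 1 and 5 without knockdown replicate 3, and 1 or 2 were higher. EIF2S3, the gamma subunit of eIF2, fell by 0.30 on the log2 scale (adjusted p = 0.000545), IMPACT, which restrains the amino acid sensing kinase GCN2, rose by 0.23 (adjusted p = 0.0344), and EIF2AK1, the heme-regulated kinase, fell by 0.21 (adjusted p = 0.0392). EIF2AK4, which encodes GCN2 itself, rose from 38.4 ± 1.42 to 43.3 ± 0.697 TPM, a log2 fold change of 0.17 (adjusted p = 0.0131). The calls of EIF2S3 and EIF2AK4 held in all 15 alternatives, that of IMPACT in 7 and that of EIF2AK1 in 4. Phosphorylated eIF2 was not measured.

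Of 17 further ATF4 targets, 12 were tested, with 3 lower and 4 higher. Under either rescaling 1 was lower, and 2 were higher without control replicate 2 or 3, without knockdown replicate 1 or 2 or without the trend. DDIT4, also called REDD1, an mTORC1 inhibitor also induced by hypoxia and glucocorticoids, was at 35.37, 34.83 and 36.39 TPM in the controls and at 98.23, 99.05 and 98.44 TPM in the knockdown-labelled libraries. Its groups are wide apart, and its log2 fold change of 1.45 (adjusted p = 1e-06) is larger than that of any member. JDP2, a bZIP repressor, rose by 0.47 (adjusted p = 0.0444), and TNFRSF10B, the death receptor that DDIT3 induces, fell by 0.45 on the log2 scale (adjusted p = 0.00029). DDIT4 and TNFRSF10B were called in all 15 alternatives and JDP2 in 5, with no call when any one library was left out.

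Transporters outside the member list had 5 of 11 tested genes lower and 2 higher, with a median log2 fold change of -0.19. The lower count was 4 or 5 in every alternative, and 1 was higher without control replicate 1 or 2 or without knockdown replicate 1 or 2. SLC43A2, a carrier of large neutral amino acids, was low at 2.32 ± 0.191 and 1.25 ± 0.0265 TPM and fell by 0.56 on the log2 scale (adjusted p = 0.00781). SLC1A3, the glial glutamate transporter and a relative of SLC1A5, also fell by 0.56 (adjusted p = 0.00628), and SLC7A6, another light chain partner of SLC3A2, fell by 0.49 (adjusted p = 0.00797).

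The other cytosolic synthetases and their scaffold proteins had 5 of 14 lower and 4 higher. The lower count was 4 or 5 in every alternative, but 1 was higher without control replicate 1 or 2, and 2 without control replicate 3 or knockdown replicate 1. FARSA, the alpha subunit of the phenylalanine enzyme, fell by 0.47 on the log2 scale (adjusted p = 6.12e-05). FARSB, the beta subunit of that enzyme, rose from 27.1 ± 0.274 to 32.0 ± 0.44 TPM, a log2 fold change of 0.23 (adjusted p = 0.00193). Both subunits were called in all 15 alternatives. The scaffold protein EEF1E1 fell by 0.39 (adjusted p = 0.00416). Of the 17 mitochondrial synthetases, 3 were lower and 2 higher, with the largest called changes in AARS2 (-0.52, adjusted p = 0.000621), FARS2 (0.39, adjusted p = 0.0019) and EARS2 (-0.30, adjusted p = 0.0162). The call of EARS2 was lost without control replicate 3 and without knockdown replicate 3. The cytosolic and mitochondrial alanine enzymes, AARS1 and AARS2, thus moved in opposite directions.

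Folate and glycine enzymes outside the members had 1 of 10 tested genes lower and 3 higher. The 3 were called in all 15 alternatives, while the lower call was lost in all but 3 of them, and whenever a library was left out. GCSH, the carrier protein of the glycine cleavage system, rose by 0.33 (adjusted p = 0.0116), and MTHFD1, the cytosolic counterpart of the mitochondrial folate enzymes, by 0.22 (adjusted p = 0.00195). Among 11 tested genes of amino acid sensing by mTORC1, the growth kinase that reads leucine and arginine, 4 were lower and 2 higher, with 2 lower after quantile normalization. The Rag GTPases that bring mTORC1 to the lysosome were split, with RRAGB (-0.55, adjusted p = 0.00131) and RRAGD (-0.37, adjusted p = 0.00957) lower and RRAGA (0.35, adjusted p = 0.00112) higher.

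**Figure D4:**
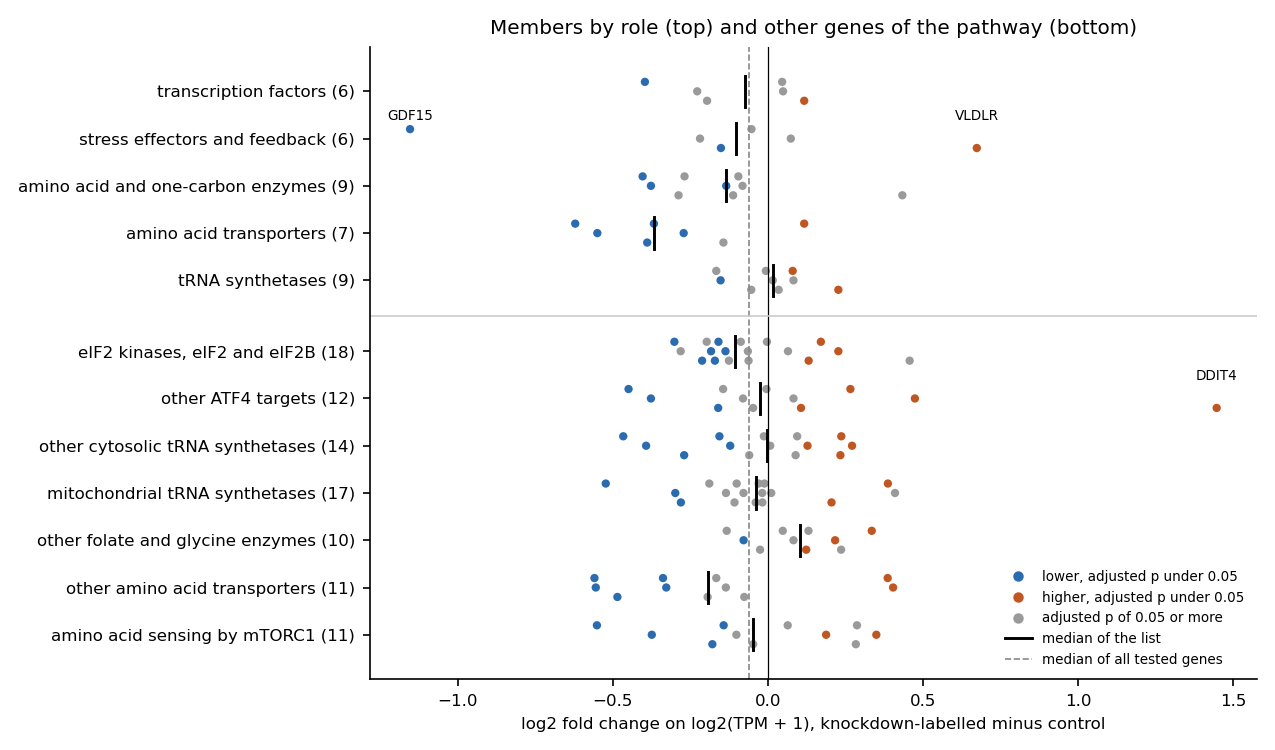
Log2 fold change on the log2(TPM + 1) scale for each gene of the 5 member roles (above the line) and the 7 other lists (below), with the number of tested genes in brackets, black bars for the median of each list and a dashed line for the median of all tested genes. The member transporters have the lowest median, -0.37, followed by the other transporters at -0.19, and the tRNA synthetases straddle 0.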

How the data were processed

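Total RNA of 6 U87-MG samples was sequenced in read pairs, and the authors deposited 1 table of TPM values per gene and library, rounded to 2 decimals. The submitters' processing notes name fastp, RSEM and the build GRCh38.p13; the aligner, the annotation, filters and the use of strand are not given in the sources used here. The methods of the study name a TruSeq kit and TRIzol, and the labels name SMARTER and RNeasy kits. The table holds 190 loci with MSTRG names. Since read depth cannot be recovered from TPM, no counting error is given, and a large change in abundant genes shifts the TPM of all others.

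The test was limma (version 3.58.1, R 4.3.3): lmFit on log2(TPM + 1) with group as the sole term, then eBayes with trend, over the 13722 genes whose mean reached 1 TPM. Fold changes on this scale understate those of low genes. All adjusted p-values come from limma with Benjamini-Hochberg adjustment over these genes, and the procedure was tested on simulated data. Gene coordinates and overlaps are from GENCODE 29 (GRCh38), and promoter windows from RefSeq (GRCh38.p14). Columns were matched to samples by name, with 0 left over. Groups came from the labels.

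The members and lists were chosen with earlier results of these data known. All 37 members are named, with values per library for ATF4 and for members called with a log2 fold change of 0.5 or more in size, and for others where single libraries matter; these last were chosen after their values were seen. In each other list, up to 3 called genes with the largest changes are named, and 2 genes this rule would name are not reported here. Alternatives varied the pseudocount, the limit on low values, the scaling, the trend, the replicate number and the libraries.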

Additional observations from a re-analysis of the deposited data

How the results depend on the processing

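Of 553 values for members under 15 alternatives, 507 kept their direction and their side of the threshold, 26 lost the call, 9 gained one and 11 changed sign. The number of lower members was 10 to 14 throughout, and GDF15 alone passed the fold limit in each alternative. The number of higher members moved from 5 to 3 when low genes were all kept, to 3 when the limit was 0.1 TPM and to 2 without the trend, and was 3 to 4 when each library was left out in turn. With a replicate block it was 3. The deviations of same-numbered libraries correlated at -0.0198, 0.0341 and 0.0334, and those of different-numbered ones at -0.0656 to 0.0336. No effect shared by replicate number was thus visible, and whether same-numbered libraries were prepared together is not given. The block also left PSAT1 without a call (adjusted p = 0.0636). Sign changes were limited to uncalled members near 0. TRIB3 was 0.006 under both median-of-ratios and quantile scaling, CARS1 0.061 and 0.068, and GARS1 0.016 and 0.009. These scalings move the median of all genes from -0.06 to 0.00. When each library was left out, TRIB3 ranged from -0.112 to 0.025, CARS1 from -0.03 to 0.024, EPRS1 from -0.001 to 0.067 and MARS1 from -0.031 to 0.159. Among the other lists, the lower eIF2 genes went from 6 to 1 under either scaling. The cause of the other moves was not tested. With a limit of 5 TPM, CHAC1 and ALDH1L2 were no longer tested. Depth is unknown, so no detection limit can be given for CHRM3.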
